A study of Mus musculus with 15 samples.

Results

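Axon guidance ligands and receptors are the cell surface and secreted proteins that steer growing axons and, in the adult brain, stay expressed at synapses and on glia and vessels. Members were chosen by a gene symbol pattern, with earlier results of these data known, and 69 of the 26628 genes in the table matched. They comprised 20 semaphorins with 9 plexins and 2 neuropilins, 8 ephrins with 14 Eph receptors, 3 Slits with 4 Robo receptors, and 4 netrins with Dcc and 4 Unc5 receptors, or 35 ligands and 34 receptors in all. The cerebellum (Ce) and striatum (St) were profiled by RNA-seq in male Hsd:ICR mice labelled as 6 weeks old, from a line bred for high voluntary wheel running (Hi) and from an unselected control line (Co). The 4 groups were CeCo (n = 4), CeHi (n = 4), StCo (n = 4) and StHi (n = 3, after the authors set aside 1 sample). Mice of both lines had a running wheel in the cage until sampling on day 7, so no group is without wheel access. Each line is a single breeding line of a replicated selection experiment, so a difference between Hi and Co cannot be told apart from drift between these lines or from the amount of running before sampling. Each sample was the whole dissected region of 1 mouse, and which Ce and St samples share a mouse is not given in the sources used here.

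Semaphorins act through plexins, and the secreted class 3 members mostly through plexins paired with a neuropilin. Ephrins are held on the membrane, the A type by a lipid anchor and the B type by a transmembrane segment, and bind Eph receptor tyrosine kinases on the neighbouring cell. Slits are secreted and repel axons that carry Robo receptors, and netrins attract axons through Dcc or repel them through Unc5 receptors. In the cerebellum these families are known for the migration of granule cells and the shaping of the folia, and in the striatum for the compartments of medium spiny neurons and the sorting of thalamic, cortical and midbrain fibers.

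The libraries held 38499264 to 43669012 normalized counts, which correspond to 32909383 to 47485535 fragments, so that 1 fragment was worth 0.841 to 1.30 normalized counts. A normalized count is a fragment count divided by a library factor and not by gene length. The labelled regions matched their defining markers, since the sum of 8 cerebellar granule cell markers was 6471 to 7767 CPM (normalized counts scaled to a library total of 1000000) in Ce and 211 to 259.6 in St, and the sum of 11 medium spiny neuron markers was 5197 to 7268 in St and 383.5 to 441 in Ce. One library stood apart in Ce. In CeHi replicate 3 the typical (median) striatal neuron marker reached 2.12% of what St samples held, where the remaining 7 Ce libraries had 0.603% to 0.745%, and the sum of 7 thalamic neuron markers was 166 CPM against 82.92 to 108. Its summed striatal neuron markers, at 5.89% of the St level, lay within the 5.75% to 6.58% of the other libraries. Region differences of the 11 markers, Ce minus St, ran from log2 -8.98 to -3.32 (median -7.12). In Ce the sum is weighted toward the markers with more signal there and says little about the typical marker. Because of the raised median, line differences called in Ce are also given without CeHi replicate 3.

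Levels were first compared between members per kilobase of exon. In Ce the semaphorin Sema7a, a lipid-anchored ligand, had the highest level at 2708 normalized counts per kb, followed by Plxnb2, a receptor of class 4 semaphorins, at 1075. In St the order was led by Efnb3, a transmembrane ephrin, at 1797, then Sema7a at 1607, Sema6b at 1299 and the receptor Epha4 at 1136 per kb. The ranges of Efnb3 and Sema7a over the St samples, 1565 to 2119 and 1249 to 2025 per kb, overlapped, so their order in St is not set beyond the spread between samples. The St range of Sema6b, 1236 to 1413 per kb, also overlapped those of Sema7a and of Epha4 (1017 to 1288). Sema7a held 18.2% of the summed level of the 69 members in Ce, and Sema7a with Efnb3 held 17.0% in St.

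**Figure D1:**
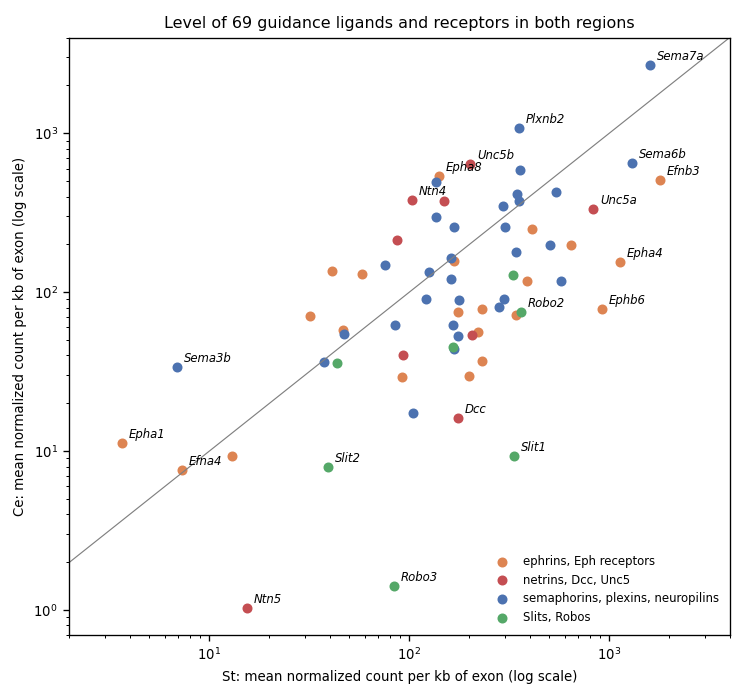
Mean level of the 69 members in St (horizontal axis) and Ce (vertical axis), in normalized counts per kb of exon on log scales, averaged over the means of the Co and Hi groups, with 1 point per gene colored by family and the diagonal marking equal levels. Robo3, Slit1, Dcc, Ntn5 and Ephb6 lie far below the diagonal (84.1 in St against 1.41 in Ce for Robo3), while Plxnb2, Unc5b and Epha8 lie above it.

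The leading member was the same in both regions for some classes and not for others. Among netrins, Ntn4, a basement membrane netrin, and Ntn1 were level in Ce (382 and 377 per kb, with overlapping ranges of 347 to 437 and 325 to 466). In St Ntn1 was the higher (149.9 per kb, with Ntn4 at 103). The highest netrin receptor was Unc5b in Ce (644) and Unc5a in St (833). The leading Eph receptor was Epha8 in Ce (538 per kb) and Epha4 in St, and the leading plexin or neuropilin was Plxnb2 in Ce and Plxnd1 in St (573 per kb). In St the ranges of Epha4 and Ephb6, and those of Plxnd1 and other plexins, overlapped. Slit3 led the Slits in Ce (129 per kb), while Slit1 (334) and Slit3 (332) were level in St. Robo2 led the Robo receptors, Efnb3 the ephrins and Sema7a the semaphorins in both regions, though the St ranges of Sema7a and Sema6b overlapped. Summed over a class, Slits, Robo receptors, neuropilins, both ephrin classes and both Eph receptor classes were higher in every St sample than in any Ce sample (Robo receptors, 595.8 to 738.5 per kb in St against 134.8 to 176 in Ce), netrins were higher in every Ce sample (735.3 to 886.5 against 334.1 to 434), and the semaphorin sums overlapped (6104 to 7029 in Ce, 5613 to 6193 in St).

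The difference between the regions was then tested with limma on log2 values, over 15213 genes with a CPM of at least 1 in 3 or more samples. All members except Efna4, an ephrin-A ligand whose normalized counts were 6.48 to 19 in Ce and 9.71 to 14.8 in St, passed this filter. Of the 68 members tested, 63 differed between Ce and St at an FDR-adjusted P-value under 0.05, where 80.2% of all genes tested did. The members higher in Ce numbered 21 (40.6% of all genes were called in that direction) and those higher in St 42 (39.6% of all genes). The median log2 difference, Ce minus St, was -0.83 over the members and 0.01 over all genes. A difference of 4-fold or more was found for 14 members, 13 of them higher in St, where 10.7% of all genes differed as much in either direction. The values of all Ce and all St samples did not overlap for 52 members (55.2% of all genes), and all 63 members called had the same direction within Co and within Hi. The members were called on the mean of both lines, so this agreement is not a separate check. Robo3 and Ntn5 passed the filter through their St values alone and Epha1 and Sema3b through their Ce values alone, so a difference in these was built into the filter. Over the 64 members that passed it in both regions, 59 were called, 19 higher in Ce and 40 higher in St, and all 11 with a difference of 4-fold or more were higher in St. The shares of all genes that passed in both regions were not computed, so these counts have no like background here. In bulk tissue, fewer cells of a type cannot be told apart from less RNA per cell, in these and in all later comparisons.

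**Figure D2:**
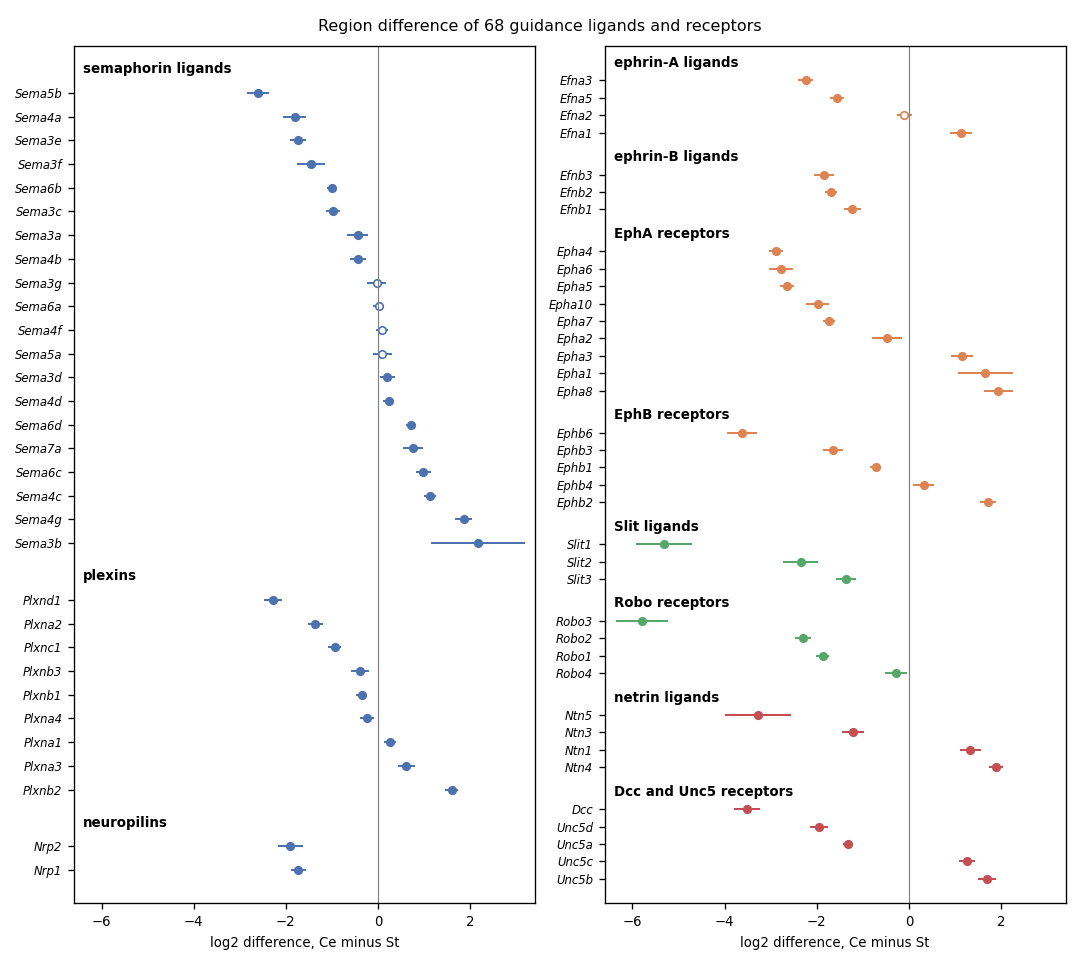
Log2 difference between regions, Ce minus St, of the 68 members tested, grouped by class, with the limma estimate as a point and its 95% confidence interval as a line (filled, FDR-adjusted P-value under 0.05, and open, not under 0.05). All 7 Slit and Robo members, all 3 ephrin-B ligands and both neuropilins lie to the left (higher in St), while semaphorin ligands spread over both sides. Robo3 and Ntn5 passed the filter through St alone, and Epha1 and Sema3b through Ce alone.

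Slits and Robo receptors were the family with 1 direction, the 6 members that passed the filter in both regions being higher in St, from Robo4 (log2 -0.28 ± 0.10 SE) to Slit1 (log2 -5.32 ± 0.27). Robo3 passed the filter through St alone and is given as values. Robo3, the Robo family member that commissural axons need to cross the midline, had 827, 584, 513 and 717 normalized counts in the StCo samples and 783, 342 and 348 in StHi. Its counts were 3.73, 12.5, 5.97 and 8.02 in CeCo and 10.9, 6.33, 12 and 18 in CeHi, a ratio of means of 59.4 between St and Ce. Every St sample lay far above every Ce sample, and within StHi 1 sample was more than double the others. Slit1, a secreted ligand, had 1717, 2162, 2483 and 1906 in StCo, 1931, 1700.4 and 2039 in StHi, 49.4, 25.9, 52 and 48.1 in CeCo and 53.8, 30.6, 39.8 and 142 in CeHi. The St to Ce ratio of means was 35.9 (log2 -5.32 ± 0.27, FDR-adjusted P-value = 2.71e-10). Its highest Ce value came from CeHi replicate 3, the library with the raised median striatal marker. Slit2 was 4.95 times higher in St (log2 -2.35 ± 0.17, FDR-adjusted P-value = 4.21e-09) and Slit3 2.57 times (log2 -1.37 ± 0.09, FDR-adjusted P-value = 8.23e-10).

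Robo1 and Robo2, the main Slit receptors of forebrain axons, ranged over 2353 to 3072 and 4908 to 6952 in St, with medians of 2744 and 5976. In Ce they ranged over 652 to 853 and 1028 to 1529, with medians of 736 and 1309. Both were higher in every St sample than in any Ce sample (log2 -1.87 ± 0.06 and log2 -2.29 ± 0.07, FDR-adjusted P-values of 5.08e-15 and 1.16e-14). Robo4, known from endothelial cells, was the exception in size, at 180.3 to 277 in St and 159 to 218 in Ce with overlapping samples (FDR-adjusted P-value = 0.0156). The sum of 6 endothelial markers was 132.8 to 182.6 CPM in St and 150.1 to 170.7 in Ce.

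**Figure D3:**
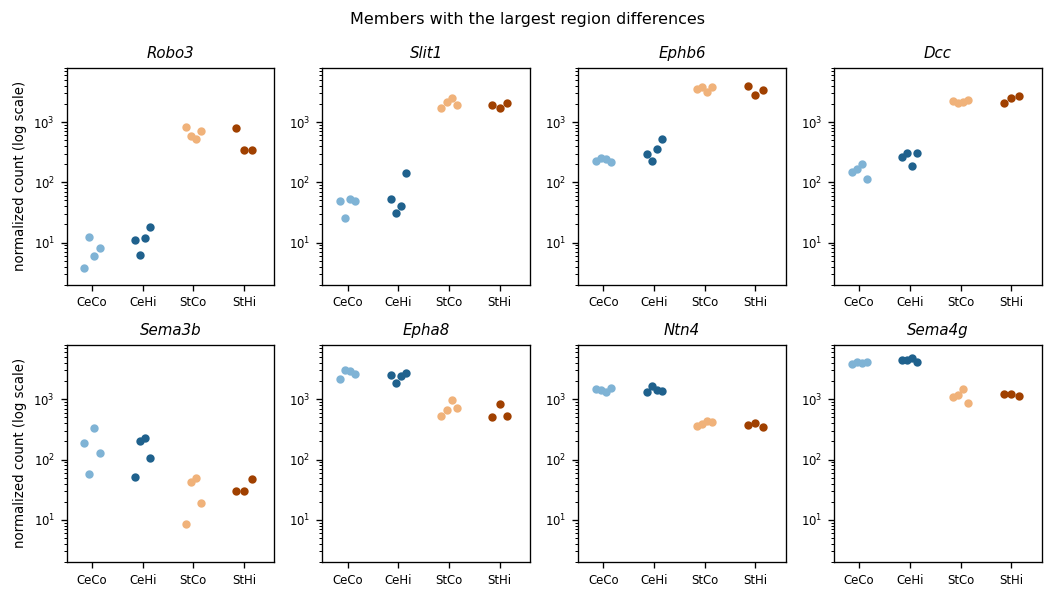
Normalized count of each sample on a log axis for the 4 members with the largest difference toward St (Robo3, Slit1, Ephb6, Dcc) and the 4 with the largest difference toward Ce (Sema3b, Epha8, Ntn4, Sema4g), with 1 point per sample and the groups CeCo, CeHi, StCo and StHi side by side. The regions do not overlap in any of the 8 panels, and the points of Sema3b are the most spread within Ce (50.5 to 333). Robo3 passed the filter through St alone and Sema3b through Ce alone.

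Of the 9 netrin family members, 4 were higher in Ce and 5 in St (40.6% and 39.6% of all genes were called in these directions). Ntn1, the classic attractant, and Ntn4 were higher in Ce, and Ntn3 in St. Ntn5 passed the filter through St alone and is given as values. Ntn1 was 2.51 times higher in Ce, with 2041 to 2923 there and 761 to 1310.5 in St (log2 1.34 ± 0.10, FDR-adjusted P-value = 4.18e-09). For Ntn4 the counts were 1465, 1422, 1299.6 and 1509 in CeCo, 1317, 1635, 1402 and 1381 in CeHi, 358, 394, 434 and 417 in StCo and 368, 398 and 343 in StHi, a ratio of 3.71 toward Ce (log2 1.88 ± 0.06, FDR-adjusted P-value = 8.80e-15). The lowest Ce value of Ntn4 was about 3 times the highest St value. Ntn5 was at 3 fragments or fewer in every CeHi sample, and its counts were 64.2, 19.8, 23.1 and 45.7 in StCo and 53.2, 13.6 and 23.7 in StHi. Against a floor of 3 fragments per library, StHi was at least 10.4-fold higher than CeHi. Since 23.4% of the Ntn5 exonic length overlaps Sec1 on the opposite strand, and the strand setting of the counting is not given in the sources used here, reads of the pair cannot be told apart.

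Among netrin receptors Dcc, Unc5a and Unc5d were higher in St, and Unc5b and Unc5c in Ce. Dcc, the attractant receptor on chromosome 18 (GRCm38, 71253634 to 72351069, reverse strand), was 10.9 times higher in St, with 2061 to 2693 there and 113 to 307 in Ce (log2 -3.51 ± 0.12, FDR-adjusted P-value = 1.40e-13). Unc5d was 3.82 times higher in St (log2 -1.94 ± 0.08, FDR-adjusted P-value = 7.27e-13) and Unc5a 2.49 times (log2 -1.32 ± 0.05, FDR-adjusted P-value = 2.57e-14). In the opposite direction, Unc5b was 3.19 times higher in Ce (log2 1.69 ± 0.08, FDR-adjusted P-value = 1.55e-11) and Unc5c, whose loss disturbs cerebellar cell migration, 2.43 times (log2 1.27 ± 0.07, FDR-adjusted P-value = 3.13e-11). Ligands and Unc5 receptors alike were thus divided, with Ntn1, Ntn4, Unc5b and Unc5c on the Ce side and Ntn3, Dcc, Unc5a and Unc5d on the St side.

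In the ephrin family 14 of 21 members tested were higher in St (39.6% of all genes) and 6 in Ce (40.6% of all genes). The 6 include Epha1, which passed the filter through Ce alone. All 3 ephrin-B ligands were higher in St, led by Efnb3 (3.54-fold, log2 -1.84 ± 0.09, FDR-adjusted P-value = 3.43e-11), the midline ephrin of the spinal cord. Of the ephrin-A ligands, Efna3 and Efna5 were higher in St (Efna5, 803 to 978 in St and 271 to 369 in Ce, log2 -1.56 ± 0.06, FDR-adjusted P-value = 1.87e-13), Efna1 was higher in Ce (log2 1.13 ± 0.10, FDR-adjusted P-value = 1.77e-08), and Efna2 did not pass (294 to 391 in Ce and 336 to 413 in St, with a 95% interval of the log2 difference of -0.25 to 0.05). Epha4, which binds both ephrin types, had 9945, 8874, 8188 and 10370.0 in StCo, 8967, 8575 and 9322 in StHi, 1087, 1251, 1011 and 1116 in CeCo and 1478, 1364, 1459 and 1197 in CeHi. It was 7.35 times higher in St (log2 -2.89 ± 0.06, FDR-adjusted P-value = 4.80e-17) with no overlap. The related receptors Epha6 (6.73-fold) and Epha5 (6.22-fold) followed in the same direction (log2 -2.78 ± 0.11 and log2 -2.64 ± 0.06, FDR-adjusted P-values of 4.68e-13 and 2.66e-16).

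Ephb6, an Eph receptor without kinase activity, had the largest difference of the family, 11.8-fold toward St (log2 -3.62 ± 0.14, FDR-adjusted P-value = 3.21e-12). Its counts were 2777 to 3979.5 in St, 225, 252, 247 and 216 in CeCo and 296, 230.0, 361 and 524 in CeHi, where the highest value again came from replicate 3. Epha8 had the largest difference toward Ce, with 2192, 3062, 2894 and 2599.6 in CeCo, 2551, 1894, 2391 and 2686 in CeHi, 526, 671, 956 and 704 in StCo and 507, 823 and 531 in StHi (3.8-fold, log2 1.94 ± 0.14, FDR-adjusted P-value = 6.63e-09). The lowest Ce sample was about double the highest St sample. Ephb2, which shapes excitatory synapses, was 3.31 times higher in Ce (log2 1.71 ± 0.07, FDR-adjusted P-value = 5.12e-13), Epha3 2.23 times (log2 1.15 ± 0.10, FDR-adjusted P-value = 1.45e-08). The low-level Epha1, which passed the filter through Ce alone, had a ratio of means of 3.08 toward Ce with overlapping samples.

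Of 20 semaphorin ligands, 8 were higher in Ce and 8 in St, near the shares of all genes called in these directions (40.6% and 39.6%). The other 4 did not pass (Sema3g, Sema4f, Sema5a and Sema6a). The 8 higher in Ce include Sema3b, which passed the filter through Ce alone. Toward St the largest differences were those of Sema5b (6.01-fold, log2 -2.60 ± 0.10, FDR-adjusted P-value = 2.16e-13) and Sema4a (3.48-fold, log2 -1.81 ± 0.10, FDR-adjusted P-value = 8.01e-11). Toward Ce, Sema4g had 3780.1, 4188, 3997 and 4124 in CeCo, 4524, 4424, 4773 and 4224 in CeHi, 1102, 1177, 1478 and 869 in StCo and 1215, 1243 and 1148 in StHi (3.61-fold, log2 1.86 ± 0.08, FDR-adjusted P-value = 1.58e-12). Sema4c was 2.2 times higher in Ce (log2 1.13 ± 0.05, FDR-adjusted P-value = 9.26e-13), and their receptor Plxnb2 was 3.02 times higher, with 7206 to 9207 in Ce and 2260.0 to 3078 in St (log2 1.59 ± 0.06, FDR-adjusted P-value = 5.62e-14). So Sema4c, Sema4g and Plxnb2, a ligand and receptor set known from cerebellar granule cell development, were all higher in every Ce sample than in any St sample. Sema3a, the founding secreted repellent, differed less (751 to 1009 in Ce and 843 to 1484 in St, log2 -0.44 ± 0.10, FDR-adjusted P-value = 5.05e-04) and its samples overlapped, and Sema7a was 1.69 times higher in Ce (log2 0.76 ± 0.10, FDR-adjusted P-value = 2.47e-06).

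Sema3b, a secreted class 3 ligand, had the largest estimate toward Ce (4.91-fold, log2 2.17 ± 0.46) and the widest spread. It passed the filter through Ce alone, so it is given as values, and Epha8 and Ntn4 led the members that passed in both regions. Its counts were 185, 58, 333 and 130.0 in CeCo and 50.5, 205, 225 and 106 in CeHi, against 8.64 to 49.4 in St. The sums of 6 choroid plexus markers in the same libraries were 1978, 32.9, 3014 and 919 CPM in CeCo, and 24.03, 2819, 2252 and 316 CPM in CeHi. The libraries with the lowest Sema3b in each Ce group were those with the lowest choroid plexus sum, and their values of 58 and 50.5 lay next to the highest St value of 49.4. The part of choroid plexus tissue in the difference was not tested.

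Among the receptors for these ligands, both neuropilins were higher in St (Nrp1, 1501 to 2048 in St and 457 to 576 in Ce, log2 -1.73 ± 0.06, FDR-adjusted P-value = 9.16e-14; Nrp2, log2 -1.90 ± 0.12, FDR-adjusted P-value = 7.06e-10), as were 6 of 9 plexins. Plxnd1, the receptor of Sema3e, was 4.85 times higher in St (log2 -2.28 ± 0.09, FDR-adjusted P-value = 3.10e-13), and Sema3e was also higher there (log2 -1.74 ± 0.07, FDR-adjusted P-value = 1.69e-13). Plxna2, a receptor of Sema6a, was 2.54 times higher in St (log2 -1.36 ± 0.06, FDR-adjusted P-value = 2.04e-12), whereas Sema6a itself was level, with 1154 to 1639 in Ce, 1315 to 1567 in St and a 95% interval of the log2 difference of -0.08 to 0.11. Plxna1, Plxna3 and Plxnb2 were higher in Ce, the first by a log2 difference of 0.27 with overlapping samples.

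Promoter sequence was examined because the members divided into genes higher in Ce and genes higher in St. RefSeq promoter windows on GRCm38.p6 were matched for 59 of the 69 members, and the 250 bases before each start were searched on both strands, with overlapping matches counted, for a GC box (GGGCGG) and for 3 other motifs spelled out with their shares. The windows shown belong to the 2 matched members with the largest differences toward St and toward Ce. They are printed 5′ to 3′ on the gene's strand without bases that GENCODE M21 annotates as exon, and capitals mark GC box matches. The Ntn4 stretch precedes a RefSeq start but lies within the GENCODE M21 span of the gene, which begins at 93640681.
Robo3 (chr9:37433247-37433425, reverse strand): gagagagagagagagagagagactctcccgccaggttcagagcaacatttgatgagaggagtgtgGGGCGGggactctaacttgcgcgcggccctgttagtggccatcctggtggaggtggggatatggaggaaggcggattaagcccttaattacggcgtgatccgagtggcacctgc
Ephb6 (chr6:41605261-41605481, forward strand): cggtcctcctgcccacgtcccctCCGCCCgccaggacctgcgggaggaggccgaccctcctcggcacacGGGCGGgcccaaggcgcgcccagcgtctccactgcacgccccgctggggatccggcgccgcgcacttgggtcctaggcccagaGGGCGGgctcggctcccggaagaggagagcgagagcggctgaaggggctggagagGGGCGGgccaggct
Epha8 (chr4:136956817-136957066, reverse strand): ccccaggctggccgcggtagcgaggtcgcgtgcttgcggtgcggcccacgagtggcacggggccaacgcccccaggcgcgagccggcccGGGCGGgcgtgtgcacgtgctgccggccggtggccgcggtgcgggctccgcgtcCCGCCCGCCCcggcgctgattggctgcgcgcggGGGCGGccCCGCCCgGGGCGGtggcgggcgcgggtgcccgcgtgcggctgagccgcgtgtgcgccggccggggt
Ntn4 (chr10:93640799-93641048, forward strand): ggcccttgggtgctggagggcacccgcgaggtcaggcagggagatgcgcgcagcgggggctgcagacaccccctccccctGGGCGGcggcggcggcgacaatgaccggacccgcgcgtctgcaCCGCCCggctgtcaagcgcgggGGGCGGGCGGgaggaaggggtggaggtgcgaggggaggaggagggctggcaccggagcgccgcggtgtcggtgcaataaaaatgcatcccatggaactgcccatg
The Robo3 stretch held 1 GC box match, Ephb6 4, Epha8 6 and Ntn4 4, with G and C making up 58.1%, 76.5%, 84.0% and 73.2% of the bases, and none of the other motifs matched. Over all members, 70.7% of 75 windows held a GC box, against 32.7% of the 32851 windows of 27025 genes. The median G and C content was 64.4% against 52.4%. The 27025 genes were not limited to those tested for expression here. Whether these contrasts, or those of the other motifs, are particular to guidance genes was therefore not tested. A TATA box (TATAAA) was present in 2.67% of member windows and 12.4% of all windows. An E-box (CAGCTG) was present in 16.0% of member windows and 13.0% of all windows. For the cAMP response element (TGACGTCA) the shares were 1.33% and 1.55%. Windows of members higher in St and higher in Ce had the same median G and C content of 64.4%, and a GC box in 73.3% of 45 and 68.0% of 25 windows, so the searched letters did not separate the directions.

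The lines were compared next, within each region. In Ce, 8 of the 68 members differed between CeHi and CeCo at an FDR-adjusted P-value under 0.05 (5.94% of all genes tested did). Dcc, Sema6a, Robo2, Epha4 and Epha6 were higher in CeHi (2.94% of all genes were called in that direction), and Ephb2, Plxnd1 and Sema4c were lower (2.99% of all genes). By role, 6 of the 34 receptors tested and 2 of the 34 ligands tested were called. Whether the roles differ was not tested. The median log2 difference, Hi minus Co, was -0.02 over the members and -0.0021 over all genes. CeCo and CeHi values did not overlap for 13 members, against 13.3% of all genes tested, with 5 higher in CeHi and 8 higher in CeCo.

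**Figure D4:**
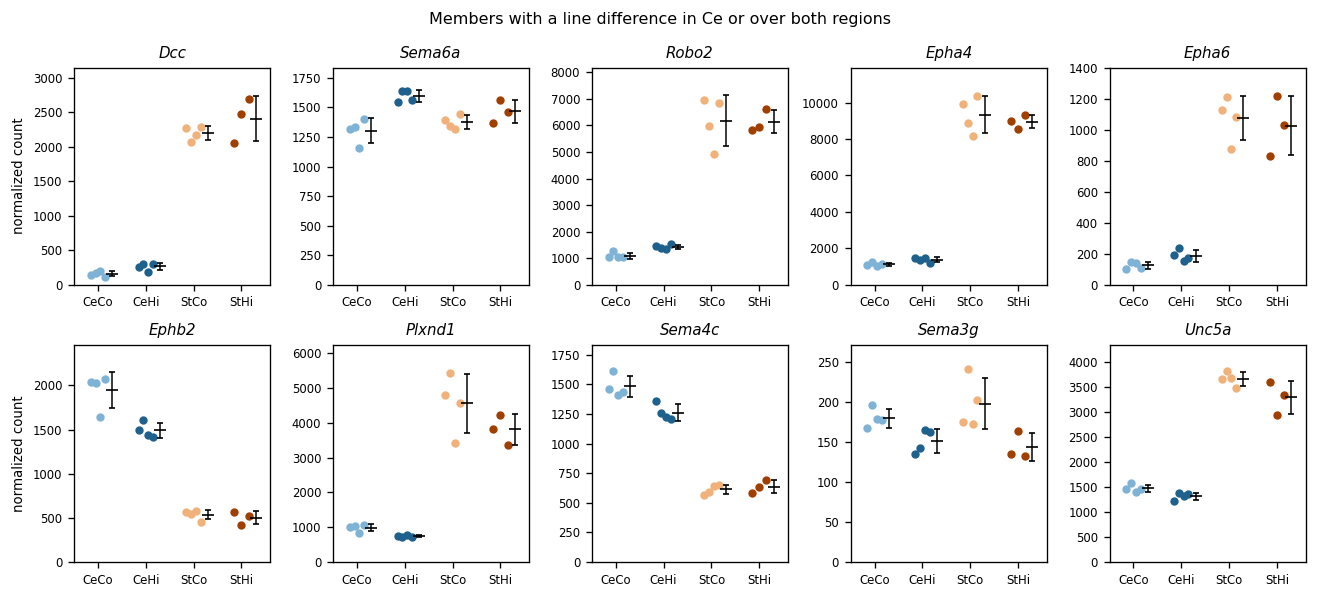
Normalized count of each sample (linear axis from 0) for the 10 members with an FDR-adjusted P-value under 0.05 for the line difference in Ce or over both regions, with 1 point per sample and, beside it, the group mean with bars of ± 1 SD (n = 4, 4, 4 and 3). CeHi points lie above CeCo points without overlap for Sema6a, Robo2 and Epha6, and below them for Ephb2, Plxnd1, Sema4c, Sema3g and Unc5a.

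Dcc had the largest line difference in Ce. Its counts were 147, 169, 199 and 113 in CeCo (mean 157 ± 36.2 SD) and 262, 307, 189.9 and 305 in CeHi (mean 266 ± 54.9 SD), with log2 0.75 ± 0.16, FDR-adjusted P-value = 0.0112. Except for CeHi replicate 2, every CeHi sample lay above every CeCo sample. In St, where Dcc was far higher, the counts were 2274, 2065, 2174 and 2282 in StCo and 2061, 2476 and 2693 in StHi (log2 0.12 ± 0.18, FDR-adjusted P-value = 0.856). Without CeHi replicate 3 the difference in Ce was 0.68 (FDR-adjusted P-value = 0.0390), and it passed in all 15 fits that left out 1 library.

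Sema6a, a transmembrane semaphorin of migrating cerebellar granule cells, had 1321, 1337, 1154 and 1398 in CeCo (mean 1302 ± 105 SD) and 1549, 1639, 1639 and 1564 in CeHi (mean 1598 ± 48 SD). All 4 CeHi samples were higher than all 4 CeCo samples (log2 0.29 ± 0.06, FDR-adjusted P-value = 0.00823), and the difference passed in all 15 fits that left out 1 library (FDR-adjusted P-value = 0.0139 without CeHi replicate 3). The St samples, at 1394, 1342, 1315 and 1447 in StCo and 1371, 1567 and 1462 in StHi, did not pass (log2 0.09 ± 0.07, FDR-adjusted P-value = 0.647). Sema6a lies on chromosome 18 (GRCm38, 47235598 to 47368870, reverse strand).

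Robo2 had 1053, 1264, 1028 and 1037 in CeCo and 1466, 1397, 1354 and 1529 in CeHi, without overlap (log2 0.39 ± 0.10, FDR-adjusted P-value = 0.0233). Epha6 had 104, 145, 139.9 and 109.5 in CeCo and 191, 238, 150.1 and 170.1 in CeHi, also without overlap (log2 0.57 ± 0.16, FDR-adjusted P-value = 0.0403). Both genes lie on chromosome 16 (GRCm38, Robo2 at 73891839 to 74411825 and Epha6 at 59653483 to 60605531, reverse strand). Epha4 had 1087, 1251, 1011 and 1116 and 1478, 1364, 1459 and 1197, where CeHi replicate 3 lay below the highest CeCo sample (log2 0.29 ± 0.08, FDR-adjusted P-value = 0.0447). These 3 calls lay near the threshold. Whichever library was left out, the log2 difference was 0.36 to 0.46 for Robo2, 0.45 to 0.68 for Epha6 and 0.25 to 0.36 for Epha4. Robo2 did not pass without CeCo replicate 0, 2 or 3 or CeHi replicate 0 or 3 (highest FDR-adjusted P-value 0.0665), and Epha6 did not pass without CeCo replicate 0 or 3, CeHi replicate 0, 1 or 3, StCo replicate 0 or StHi replicate 2 (highest 0.122). Epha4 passed in 4 of the 15 fits, those without CeCo replicate 1, CeHi replicate 3, StCo replicate 2 or StCo replicate 3 (highest 0.112).

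Without CeHi replicate 3 the difference was 0.36 for Robo2 (FDR-adjusted P-value = 0.0655), 0.61 for Epha6 (FDR-adjusted P-value = 0.0584) and 0.36 for Epha4 (FDR-adjusted P-value = 0.0124).

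The receptors higher in CeHi, Dcc, Robo2, Epha4 and Epha6, were all genes higher in St, as were 24 of all 34 receptors. Sema6a did not pass for the region. Of the 3 members lower in CeHi, Plxnd1 was also higher in St, and Ephb2 and Sema4c were higher in Ce. The sum of 11 medium spiny neuron markers was 383.5 to 408.8 CPM in CeCo and 404.3 to 441 in CeHi, and 10 of the 11 had a higher mean log2 in CeHi, with a median log2 difference of 0.34. None of the 11 passed for a line difference in Ce, and 4 had an unadjusted P-value under 0.05. Relative to their St means, Dcc stood at 4.94% to 8.68% in CeCo and 8.29% to 13.4% in CeHi, and Robo2 at 16.7% to 20.5% and 22.0% to 24.8%, while the median medium spiny neuron marker stood at 0.603% to 0.723% in CeCo, at 0.610% to 0.745% in CeHi replicates 0, 1 and 2 and at 2.12% in CeHi replicate 3. Robo3 and Slit1, the members with the largest differences toward St, had log2 line differences of 0.60 and 0.37 in Ce that did not pass (95% intervals of -0.13 to 1.34 and -0.43 to 1.18). That of Ephb6, next in the size of its region difference, was 0.52 and did not pass either (FDR-adjusted P-value = 0.139). The part of striatal tissue in the line differences was not tested.

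Among the members lower in CeHi, Ephb2 had 2043, 2031, 1646 and 2072 in CeCo and 1498, 1613, 1442 and 1418 in CeHi (log2 -0.39 ± 0.10, FDR-adjusted P-value = 0.0294). Plxnd1 had 1004, 1034, 843 and 1068 and 754, 711, 771 and 719.7 (log2 -0.42 ± 0.12, FDR-adjusted P-value = 0.0449). Sema4c had 1463, 1615, 1413 and 1436 and 1359, 1261, 1221 and 1204 (log2 -0.24 ± 0.07, FDR-adjusted P-value = 0.0496). On GRCm38, Ephb2 lies on chromosome 4 (136647539 to 136835988), Plxnd1 on chromosome 6 (115954811 to 115995005) and Sema4c on chromosome 1 (36548639 to 36558349), all on the reverse strand. The lines did not overlap for any of the 3, but each call lay near the threshold. Whichever library was left out, the log2 difference was -0.46 to -0.35 for Ephb2, -0.49 to -0.37 for Plxnd1 and -0.27 to -0.19 for Sema4c. Without CeHi replicate 3 it was -0.36 (FDR-adjusted P-value = 0.0820), -0.40 (FDR-adjusted P-value = 0.102) and -0.21 (FDR-adjusted P-value = 0.130). Ephb2 did not pass without CeCo replicate 0, 1 or 3 or CeHi replicate 0, 2 or 3 (highest FDR-adjusted P-value 0.0908). Plxnd1 passed in 5 of 15 fits (highest 0.123, without CeCo replicate 3), being lost without CeCo replicate 0, 1 or 3, any CeHi replicate, StCo replicate 0 or 3 or StHi replicate 0. Sema4c passed in 6 (highest 0.170, without CeCo replicate 1), being lost without any CeCo replicate, CeHi replicate 1, 2 or 3, StCo replicate 1 or StHi replicate 1.

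The number of members called in Ce moved with the libraries used. It was 2 without CeCo replicate 0 or CeCo replicate 3, 4 without CeHi replicate 0, CeHi replicate 2 or CeHi replicate 3, and 5 without CeCo replicate 1, CeHi replicate 1 or StCo replicate 0. Without CeHi replicate 3 the calls were those of Dcc, Epha4 and Sema6a together with Sema3f. Over 9 other settings that kept all libraries, Dcc, Sema6a, Robo2 and Ephb2 passed in all (highest FDR-adjusted P-values 0.0426, 0.0187, 0.0322 and 0.0477). Plxnd1 was lost without the filter (range 0.00742 to 0.0566), Epha6 with edgeR and with Ce fitted alone (0.00992 to 0.0636) and Epha4 without the filter, with a replicate block and with Ce fitted alone (0.00685 to 0.0683). Sema4c passed in 4 of the 9 (0.0166 to 0.0878), being lost without the filter, with either other scaling, with sample weights and with the block. The sum of 6 meningeal and perivascular fibroblast markers was 103.3 to 136.9 CPM in CeCo and 75.25 to 106.2 in CeHi, with 1 of 6 (Col3a1) lower in CeHi. That of 8 granule cell markers was 7156 to 7767 and 6471 to 7009 without overlap, all 8 having a lower mean log2 in CeHi (median -0.16) and none passing. That of 6 endothelial markers was 150.1 to 162.2 and 162.9 to 170.7, also without overlap and with none passing. Apart from Col3a1, the only marker that passed for the line in Ce was Olig1, of the 5 oligodendrocyte precursor markers. The part of these cells in the line differences was not tested.

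In St, none of the 68 members differed between StHi and StCo with limma, where 2.66% of all genes tested did. At an unadjusted P-value under 0.05 there were 8 members (14.1% of all genes), edgeR called 0 and DESeq2 called 2, Plxnb3 and Unc5b. Unc5b had 1108, 831, 973 and 1417 in StCo and 1550.0, 1434 and 1354 in StHi (log2 0.44 ± 0.12, FDR-adjusted P-value = 0.0785), and 1 StCo sample lay within the StHi values. Its counts in Ce went the other way, with 4255, 4652, 4084 and 4391 in CeCo and 3951, 3786, 3587 and 3555 in CeHi (log2 -0.23 ± 0.11, FDR-adjusted P-value = 0.287). Without StCo replicate 3, Unc5b passed in St (0.58, FDR-adjusted P-value = 0.00133). Plxnb3, a plexin of oligodendrocytes, had 1017, 665, 855 and 1013 in StCo and 1240.0, 1232 and 1145 in StHi without overlap (log2 0.46 ± 0.12, FDR-adjusted P-value = 0.0639), and it passed without StCo replicate 0 (FDR-adjusted P-value = 0.0386) or StCo replicate 3 (0.0391). Plxnd1 passed in St without StCo replicate 2 (FDR-adjusted P-value = 0.0376).

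StCo and StHi values did not overlap for 7 members (13.1% of all genes), with Plxnb3 and Sema3d higher in StHi and Efna3, Plxna4, Sema3g, Sema5b and Slit2 higher in StCo. Other cell markers moved in these libraries. The sum of 8 oligodendrocyte markers was 4797 to 6801 CPM in StCo and 7330 to 8264 in StHi, that of 5 oligodendrocyte precursor markers 330.5 to 378.6 and 417.5 to 449.3, and that of 7 thalamic neuron markers 34.0 to 54.0 and 77.0 to 88.8. The sum of 8 cortical excitatory neuron markers was 863 to 1242 and 460.4 to 960.4, with all 8 at a lower mean log2 in StHi (median -0.61), none passing and 5 at an unadjusted P-value under 0.05. Of the first 3 lists, Olig1 and Shox2 passed for the line in St. Among the other lists 1 marker passed, the granule cell marker Cbln1, and the part of these cells in the values of Plxnb3 or of other members was not tested.

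Over both regions together, 6 members differed between the lines, where 8.48% of all genes tested did. Sema6a (log2 0.19 ± 0.05, FDR-adjusted P-value = 0.015) and Dcc (log2 0.44 ± 0.12, FDR-adjusted P-value = 0.0341) were higher in Hi (4.34% of all genes), and Sema3g, Plxnd1, Unc5a and Ephb2 were lower (4.14% of all genes). Sema3g, a secreted ligand of vessels, had 168, 196, 178 and 177 in CeCo, 135, 142, 165 and 163 in CeHi, 175, 241, 173 and 203 in StCo and 135, 164 and 133 in StHi. It was lower in Hi without overlap in both regions (log2 -0.36 ± 0.09, FDR-adjusted P-value = 0.0199). Unc5a had 1451, 1572, 1403 and 1458 in CeCo and 1218, 1372, 1309.7 and 1356 in CeHi without overlap, and 3654, 3818, 3678 and 3479 and 3592, 2939 and 3340.2 in StCo and StHi (log2 -0.17 ± 0.05, FDR-adjusted P-value = 0.0297). The differences of Plxnd1 (log2 -0.33 ± 0.09, FDR-adjusted P-value = 0.0224) and Ephb2 (log2 -0.25 ± 0.07, FDR-adjusted P-value = 0.0458) were those already described in Ce, averaged with St differences of -0.25 and -0.11 that did not pass alone.

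When 1 library was left out, every log2 difference kept its sign, and that of Sema6a passed in all 15 fits. Sema3g was lost without StHi replicate 2 (FDR-adjusted P-value = 0.0584) and Plxnd1 without CeCo replicate 1 or 3 or StHi replicate 2 (highest 0.0690). Dcc passed in 7 of 15 fits (highest 0.0923), being lost without CeCo replicate 0, CeHi replicate 0, 1 or 3, StCo replicate 1 or 2 or StHi replicate 1 or 2. Unc5a also passed in 7 (highest 0.0908), being lost without CeCo replicate 0, 1 or 3, CeHi replicate 0 or 2, StCo replicate 1 or StHi replicate 1 or 2. Ephb2 passed in 4 (highest 0.131), those without CeCo replicate 2, CeHi replicate 1, StCo replicate 3 or StHi replicate 0. The number of members called fell to 3 without CeCo replicate 0, 1 or 3, CeHi replicate 0, StCo replicate 1 or StHi replicate 1, and to 1 without StHi replicate 2.

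Over 8 other settings that kept all libraries, Sema6a, Sema3g and Plxnd1 passed in all, with FDR-adjusted P-values of at most 0.0276. Dcc was lost with a replicate block (range 0.00138 to 0.0723), Ephb2 without the filter and without further scaling (0.0180 to 0.0708), and Unc5a without the filter and with the block (0.00896 to 0.0561).

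**Figure D5:**
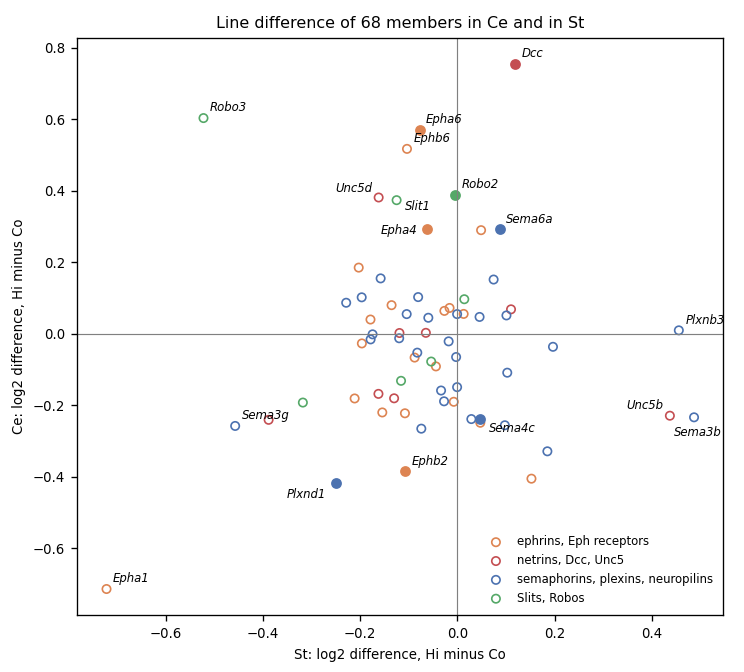
Log2 difference between the lines, Hi minus Co, in St (horizontal axis) and in Ce (vertical axis) for the 68 members tested, colored by family (filled, FDR-adjusted P-value under 0.05 in Ce, and open, not under 0.05 in Ce). The filled points spread along the vertical axis, from -0.42 (Plxnd1) to 0.75 (Dcc), while their St differences stay between -0.25 and 0.12. Points are filled for passing in Ce, so this contrast follows in part from that choice. None of the 68 members passed for the line-by-region interaction.

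Whether the line difference itself differed between the regions was tested by the line-by-region interaction. None of the 68 members passed with limma (0.532% of all genes tested did), 16 had an unadjusted P-value under 0.05 (9.56% of all genes), edgeR called 0 and DESeq2 called 1, Unc5b. For Dcc the difference in Ce exceeded that in St by a log2 value with a 95% interval of 0.12 to 1.15 before adjustment (FDR-adjusted P-value = 0.364), for Sema6a the interval was 0.01 to 0.40 (0.47) and for Unc5b -1.03 to -0.31 (0.107). The line differences called in Ce were therefore not shown to differ from those in St. Leaving out StCo replicate 2 gave 1 call (Robo2, FDR-adjusted P-value = 0.0470) and leaving out StCo replicate 3 gave 2 (Unc5b, 0.00432, and Unc5d, 0.0393). Unc5d, whose CeHi values of 509, 547, 529 and 668 all exceeded the CeCo values of 389, 478, 421 and 430.1, did not pass in Ce with all libraries (log2 0.38 ± 0.11, FDR-adjusted P-value = 0.0568).

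The genes that act with or below these receptors were counted from 2 lists. Of 16 co-receptors, adaptors and other cues tested, all differed between regions (80.2% of all genes), 12 higher in St (39.6% of all genes), among them Ntng2 (log2 -2.07 ± 0.10), Flrt2 (log2 -2.05 ± 0.05) and Dscam (log2 -1.06 ± 0.05), and 4 higher in Ce (40.6% of all genes), led by Lrig1 (log2 1.52 ± 0.05), Cntn2 (log2 1.16 ± 0.05) and Chl1 (log2 1.13 ± 0.07). Of 50 cytoplasmic effectors, 23 were higher in Ce and 22 in St, counts near those shares of all genes. Toward St the largest were Ngef, the exchange factor downstream of Epha4 (log2 -5.70 ± 0.14, with mean counts of 21528 ± 2224 SD in StCo and 376 ± 27.3 SD in CeCo), Kalrn (log2 -3.42 ± 0.05) and Chn1, a Rac inactivator that also acts below Epha4 (log2 -3.09 ± 0.05). Toward Ce they were the related Chn2 (log2 3.39 ± 0.09) and the actin-binding Ablim1 (log2 2.15 ± 0.05) and Ablim3 (log2 2.03 ± 0.06). So the paralogs Chn1 and Chn2 lay on opposite sides, and Ngef, Chn1 and Epha4 were all higher in St. Ngef and Chn1 were named for the size of their differences, and the 50 effectors as a list leaned to neither region.

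For the line in Ce, 1 of the 16 passed, the adhesion molecule L1cam, lower in CeHi (log2 -0.22 ± 0.06, FDR-adjusted P-value = 0.0348), and 5 of the 50, where 5.94% of all genes did. Srgap2, a Robo-binding GTPase regulator, had 11432, 12646, 10845 and 11228 in CeCo and 10257, 9974, 9206 and 8227 in CeHi (log2 -0.30 ± 0.07, FDR-adjusted P-value = 0.00992). Dpysl4 was also lower in CeHi (log2 -0.24 ± 0.06, FDR-adjusted P-value = 0.0279), and Pak3 (log2 0.22 ± 0.06, FDR-adjusted P-value = 0.0296), Enah (log2 0.21 ± 0.06, FDR-adjusted P-value = 0.0385) and Limk1 (log2 0.31 ± 0.08, FDR-adjusted P-value = 0.0407), which act on actin, were higher. Over both regions 2 of the 16 and 2 of the 50 passed, where 8.48% of all genes did. Ntng1 was higher in Hi (log2 0.24 ± 0.07, FDR-adjusted P-value = 0.0318). Ntng2 (log2 -0.37 ± 0.10, FDR-adjusted P-value = 0.0286), Rock2 (log2 -0.22 ± 0.06, FDR-adjusted P-value = 0.04) and Dpysl4 (log2 -0.16 ± 0.04, FDR-adjusted P-value = 0.0336) were lower. In St and for the interaction limma and edgeR called none of either list, where limma called 2.66% and 0.532% of all genes. At an unadjusted P-value under 0.05 the counts were 5 of 16 and 8 of 50 in St, and 3 and 5 for the interaction, where 14.1% and 9.56% of all genes had one. DESeq2 called Flrt2 and Lrig1 in St and Cntn2 for the interaction.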

How the data were processed

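RNA-seq reads of whole Ce and St of individual mice were aligned by the authors to GRCm38 with Tophat2 and normalized with Cuffnorm 2.2.1. The deposited values are a gene signal in which the authors divided fragment counts by a factor per library and not by length, although the table is named for FPKM. Between 99.6% and 99.8% of low values per library were whole multiples, within 0.1, of the value of 1 fragment. Samples were grouped by their labels. Values were scaled by trimmed mean of M-values factors (0.993 to 1.01) and log2(value + 1) was fitted by group with limma 3.58.1 (R 4.3.3; trend and robust moderation; Benjamini-Hochberg adjustment over 15213 genes with a CPM of at least 1 in 3 samples). A difference ± SE is on this scale, which understates changes of low genes. Alternatives were a pseudocount of 0.1, no filter, other scalings, edgeR 4.0.16 and DESeq2 1.42.0 on recovered fragments, sample weights, a replicate block, each region alone, and leaving out each library. Floors of 3 fragments cover counting error only. Levels per kb used GENCODE M21 exonic lengths, and promoters came from RefSeq. Members and lists were chosen with earlier results of these data known. Named members were those called for a line difference, the 4 largest region differences per family and direction, leading ligands and receptors, textbook members, and members at the floor or with an outlying sample. Efna1, Efna3, Efna4, Ntn3, Plxna1, Plxna3, Plxna4, Plxnb3, Sema3d, Sema3e, Sema3f, Sema4d, Sema4f, Sema5a and Sema6b were named after their values were seen. Draxin and Linx were not listed under those symbols, and Drd1 was listed as Drd1a.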

Additional observations from a re-analysis of the deposited data

Results flagged for a closer look

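In 8 of 207 groups of 4 samples over the members, the highest or lowest sample stood far from the other 3 (a gap above Dixon's 95% critical value), where chance flags about 1 in 20 groups. Of these, 3 were in CeHi replicate 3, the Ce library with the raised median striatal marker. There Efna2 was high (376 against 328 to 332 normalized counts in the other 3 samples), and Plxnb2 (7206 against 8200.4 to 8373) and Unc5c (3202 against 4257 to 4458), both higher in Ce than in St, were low. In CeCo, Ephb2 was low in replicate 2 (1646 against 2031 to 2072), a sample whose omission kept its line difference in Ce past the threshold. Robo2 was high in CeCo replicate 1 (1264 against 1028 to 1053) and Slit1 low in the same library (25.9 against 48.1 to 52.0). In StCo, Efna2 was high in replicate 2 (413 against 336 to 346) and Robo4 low in replicate 0 (195.02 against 237 to 243). With limma 0 members passed the test of a line difference that differs between Ce and St (16 at an unadjusted P-value under 0.05), edgeR called 0 and DESeq2 called 1, Unc5b.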

How the results depend on the processing

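The count of members with a region difference was 63 of 68 and stayed at 62 to 63 under the other scalings, filters and tools and without any library. For the line in Ce the count of 8 fell to 5 without the expression filter, which also raised the number of genes adjusted over, and ranged from 2 to 8 when 1 library was left out. For the line over both regions the count of 6 ranged from 1 to 6 without 1 library. In St the count of 0 became 2 with DESeq2 (Plxnb3 and Unc5b) and 3 with sample quality weights (Plxnb3, Sema3g and Sema4d), and ranged from 0 to 2 without 1 library. For the interaction the count of 0 became 1 with DESeq2 (Unc5b) and ranged from 0 to 2 without 1 library. The cause of these changes was not tested. No value of a named member changed sign, and 847 of 848 region values under an alternative stayed past the threshold, but 95 of 330 line values did not. With a replicate block the counts were 6 in Ce and 4 over both regions. That block joined samples of the same replicate number across both lines, so it is not a block by mouse. The other fits over both regions treated Ce and St samples as independent, which would not hold for samples of the same mouse. The replicate numbers were not taken to pair the samples, because Ce and St samples of the same number correlated at 0.171 to 0.278 in Co but at -0.0751 to 0.0513 in Hi. In Co, but not in Hi, every sample correlated best with its own number. Members under about 10 fragments in a region, such as Robo3 and Ntn5 in Ce, carry little information on a line difference there, and the 3 StHi libraries limit the comparison in St.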
